A study of Mus musculus with 18 samples.

Results

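The genes of the axoneme central pair apparatus considered here were Spag6l, Spag16, Spag17, Hydin, Spef2, Cfap221, Cfap69, Cfap70 and Cfap54. They were chosen by name as known components of that structure, but with earlier results of these data known. Their counts beside those of all genes are therefore descriptions and no independent test. Every probe set annotated to one of them alone was taken, which gave 9 genes of 18194 and 20 probe sets of 45037 on the array. Signals came from 18 RNA samples of whole testes, from repro9/repro9 mice, which carry a mutation in Mybl1, and from wild-type mice. The product of Mybl1, A-MYB, is a transcription factor that acts in male germ cells during meiosis. The groups were repro9/repro9 mutants at 14 days postpartum (dpp, n = 5), wild type at 14 dpp (n = 3), mutants at 17 dpp (n = 5) and wild type at 17 dpp (n = 5). Per the series' design text, 14 dpp testes are marked by early to mid pachytene cells, and 17 dpp testes by cells of late pachytene and diplotene. The labels do not tie an array to a single animal, so p-values measure the spread between these arrays.

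The axoneme of a motile cilium or sperm flagellum is a ring of doublet microtubules around a central pair of single microtubules, called C1 and C2, that carry rows of projections. Radial spokes on the doublets touch these projections, and the contact is known to shape the beat by regulating the dynein motors. In the mouse, loss of several of these proteins is known to impair sperm motility or flagellum assembly, and transcripts of flagellar genes build up in spermatocytes well before a flagellum is assembled.

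The values were MAS5 signals, which are arbitrary units of probe brightness, with a precision set by how many arrays each group has. The median signal ran from 88.8 to 149 over the arrays. The β-actin 3'/5' signal ratio, which is low where labelling extends far along a transcript, put the arrays in 3 sets with no counterpart in the labels. Set 1 (ratio 2.31 to 2.92) held mutant replicates 1 and 2 of both ages, wild-type replicates 1 and 2 of 14 dpp and wild-type replicate 1 of 17 dpp. Set 2 (1.45 to 1.49) held the other 4 arrays of 14 dpp and set 3 (103 to 125) the other 7 arrays of 17 dpp. Markers of Sertoli cells and of spermatogonia lay above the 40th percentile of the array for 8 or 9 of 9 and for 7 to 9 of 9 genes on each array. A probe set was tested if it lay above that percentile on at least 3 arrays, which held for 14 of the 20. Of these, 6 passed only through the wild-type arrays of 17 dpp, among them the probe sets that represent Spag16, Spag17 and Spef2, and such a probe set had to differ between groups, so that counts over the tested probe sets do not support a difference. Spag6l has a close relative, Spag6, and probes of one may also read transcripts of the other. Mybl1 itself (1456951_at) differed by −3.46 ± 0.45 (mutants minus wild type) at 17 dpp, past the threshold, and by −2.33 ± 0.52 at 14 dpp, short of it. A second, dimmer Mybl1 probe set (1450481_at) had geometric means of 76.2 in mutants and 156 in wild type at 17 dpp, with overlap. At 14 dpp its means were 35.6 and 146. The position of these probes against the mutation is unknown here, so Mybl1 does not check the labels. The brightest tested probe set stood for each gene, and levels are not compared between genes.

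At 17 dpp all 9 genes had a lower signal in mutants than in wild type past the threshold (adjusted p under 0.05, limma), with a median log2 difference of −3.56 against 0.26 over all 15307 genes tested. Over all genes, 5.85% were called lower in this comparison. At 14 dpp none of the 9 passed, with a median of −0.73 against 0.00 over all genes, of which 0.34% were called lower. With age 0 of 9 were called in mutants, where 1.14% of all genes were called lower and 0.647% higher. In wild type 8 of 9 rose with age, beside 7.16% of all genes, and 3 of 9 did with the array set as a block. In whole-testis RNA, fewer cells of a type and less RNA per cell cannot be told apart.

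**Figure D1:**
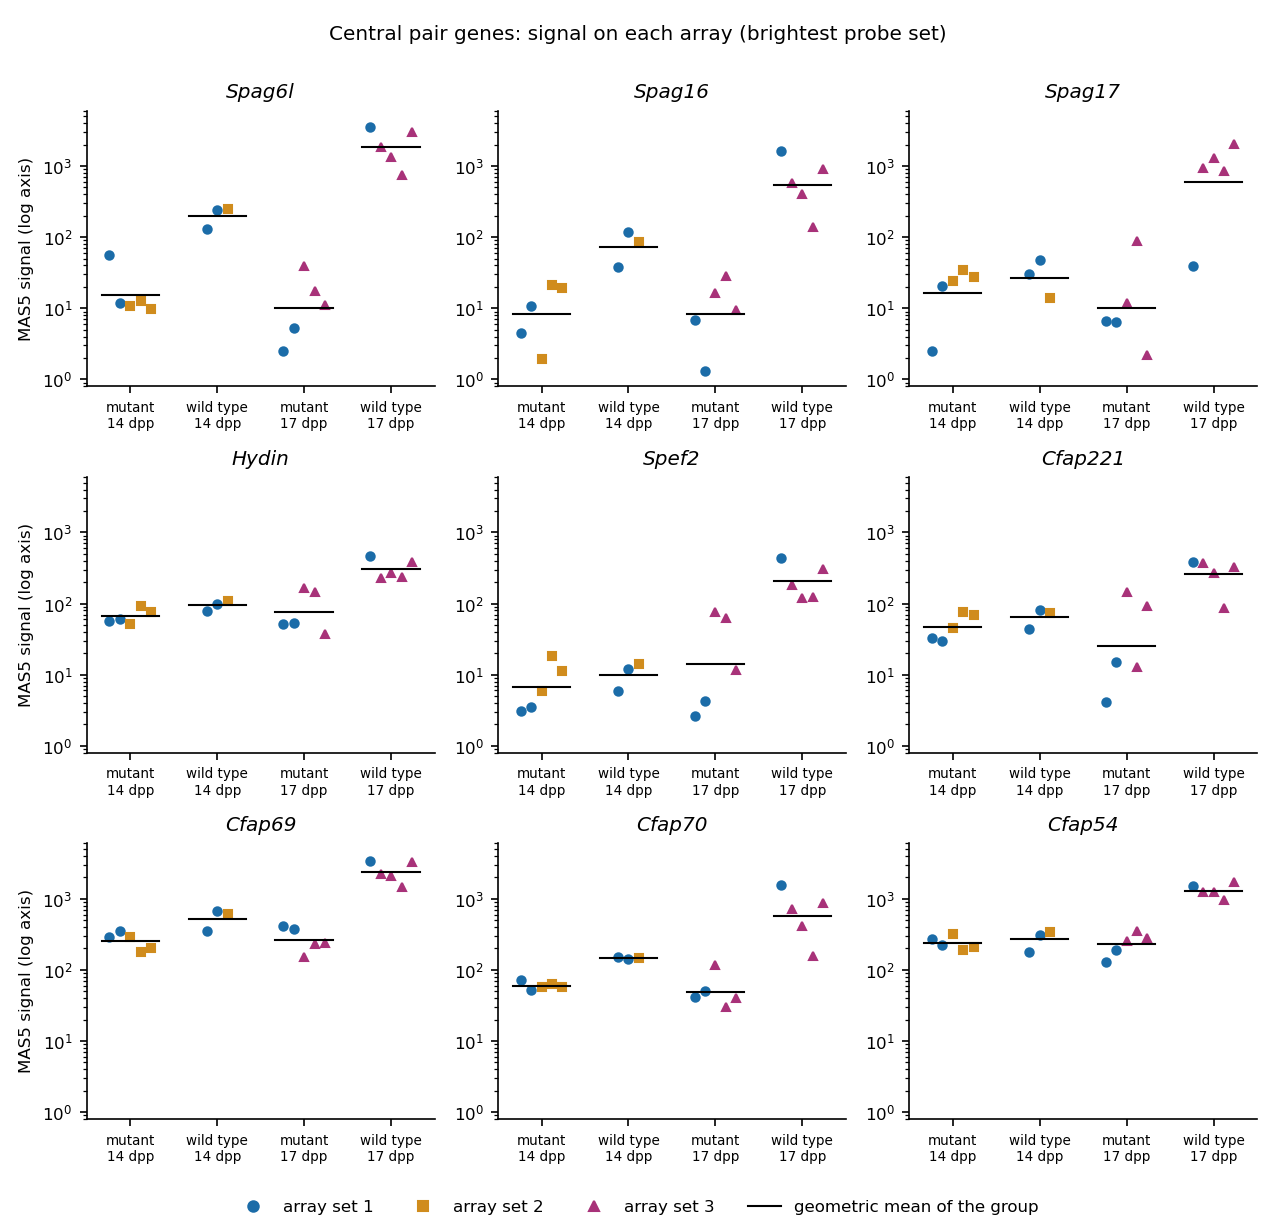
MAS5 signal (arbitrary units, log axis) of the brightest probe set of each of the 9 central pair genes on each of the 18 arrays, by group; the marker shape gives the array set and the bar the geometric mean of the group. The wild-type arrays of 17 dpp stand above the mutant arrays of that age in all genes except Spag17 and Cfap221, where single arrays overlap.

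On the signals as deposited, Spag6l, Spag16 and Spag17 had the largest differences at 17 dpp, an order that changed when low signals were raised to a floor. They are the mouse counterparts of PF16, PF20 and PF6 of the green alga Chlamydomonas, of which PF16 and PF6 belong to C1 and PF20 to the bridge between the central microtubules. The signal of Spag6l (probe set 1417528_at, chromosome 16) at 17 dpp was 2.51, 5.23, 38.9, 17.5 and 11.1 on the mutant arrays, against 3574, 1861, 1343, 743 and 3040 on the wild-type arrays. At 14 dpp it was 56.1, 11.9, 10.9, 12.5 and 9.63 in mutants, against 129, 241 and 246 in wild type. The groups did not overlap at either age, and each mutant array lay below its own 40th percentile. The log2 difference was −7.51 ± 0.67 (SE) at 17 dpp, a 183-fold lower signal in mutants (adjusted p = 7.92e-07), and −3.67 ± 0.78 at 14 dpp (adjusted p = 0.0726). The 14 dpp difference of Spag6l passed without mutant replicate 1 of 14 dpp (adjusted p = 0.0230), without mutant replicate 1 of 17 dpp (0.0262) and without mutant replicate 3 of 17 dpp (0.0328). With other arrays left out in turn, its adjusted p in limma reached 0.595.

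Spag16 (1429838_at, chromosome 1) gave 6.80, 1.30, 16.4, 28.4 and 9.48 in mutants at 17 dpp, against 1647, 570, 405, 139 and 914 in wild type. The 14 dpp signals were 4.45, 10.7, 1.95, 21.4 and 19.1 in mutants and 38.6, 118 and 85.4 in wild type. As with Spag6l, every mutant array lay below every wild-type array of its age. The difference was −6.04 ± 0.86 at 17 dpp (65.9-fold, adjusted p = 0.000142) and −3.15 ± 0.99 at 14 dpp, where it did not pass (adjusted p = 0.873). Spag17 (1440472_at, chromosome 3) gave 6.66, 6.45, 11.9, 87.6 and 2.21 in mutants at 17 dpp, against 38.8, 944, 1273, 838 and 2039 in wild type. The wild-type array at 38.8, replicate 1, lay below the highest mutant array, and the other 4 wild-type arrays lay above all mutant arrays. The difference at 17 dpp was −5.92 ± 1.07 (60.4-fold, adjusted p = 0.0016). At 14 dpp Spag17 was low in both genotypes, with 2.50, 20.4, 23.8, 34.3 and 27.4 in mutants and 30.2, 47.6 and 13.8 in wild type, and the groups overlapped (−0.73 ± 1.23).

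Mutant signals as low as these lie where array values carry little information, so the folds depend on how the low end is treated. For Spag6l, Spag16, Spag17 and Spef2 every mutant array of 17 dpp was below its array's 40th percentile. When all such signals were raised to that percentile, a setting added after the data were seen, the 17 dpp differences became −4.76 for Spag6l, −3.02 for Spag16, −3.23 for Spag17, −1.61 for Spef2 and −1.68 for Cfap221. Under that floor Hydin gave −1.84, Cfap54 −2.50, Cfap70 −3.02 and Cfap69 −3.17, so that Cfap69 passed Spag16 and Spef2 had the smallest difference in place of Hydin. The floor makes dim arrays nearly alike and so takes away spread, and its calls are not used here.

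Promoters were compared for motifs because all 9 genes were lower in mutants at 17 dpp and A-MYB and the RFX factors, known regulators of ciliary genes, each bind a known motif. Windows of 300 bases, from 250 before to 50 after the annotated start, were taken from RefSeq (GRCm38.p6) for 8 of the 9 genes, all except Cfap54. They are printed 5′ to 3′ on the strand of the gene, and capitals mark matches on either strand to TAACNG, a long form of the MYB motif, and to GTTGCC, the short repeat unit of the RFX motif. Those of Spag6l (chr16:16829314-16829613, minus strand), Spag16 (chr1:69826720-69827019, plus strand) and Spag17 (chr3:99885167-99885466, plus strand) are given as the windows with TAACNG, and that of Cfap70 (chr14:20452176-20452475, minus strand) as a window without either motif.
Spag6l: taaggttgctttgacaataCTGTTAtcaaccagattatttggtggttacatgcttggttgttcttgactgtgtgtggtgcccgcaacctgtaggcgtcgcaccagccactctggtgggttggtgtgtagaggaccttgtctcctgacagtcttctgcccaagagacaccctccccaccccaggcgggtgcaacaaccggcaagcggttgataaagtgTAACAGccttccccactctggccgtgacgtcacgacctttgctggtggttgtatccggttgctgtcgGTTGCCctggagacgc
Spag16: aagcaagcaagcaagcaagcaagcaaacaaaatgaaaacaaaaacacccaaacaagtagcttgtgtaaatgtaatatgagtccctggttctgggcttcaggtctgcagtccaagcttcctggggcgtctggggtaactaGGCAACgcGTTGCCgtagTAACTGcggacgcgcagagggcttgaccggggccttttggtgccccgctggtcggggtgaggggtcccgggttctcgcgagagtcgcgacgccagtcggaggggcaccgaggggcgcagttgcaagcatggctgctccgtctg
Spag17: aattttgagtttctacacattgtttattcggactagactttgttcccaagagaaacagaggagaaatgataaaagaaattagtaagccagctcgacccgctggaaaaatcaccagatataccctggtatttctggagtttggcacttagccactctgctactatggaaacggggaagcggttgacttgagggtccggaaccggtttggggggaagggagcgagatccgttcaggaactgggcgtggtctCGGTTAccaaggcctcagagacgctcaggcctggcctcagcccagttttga
Cfap70: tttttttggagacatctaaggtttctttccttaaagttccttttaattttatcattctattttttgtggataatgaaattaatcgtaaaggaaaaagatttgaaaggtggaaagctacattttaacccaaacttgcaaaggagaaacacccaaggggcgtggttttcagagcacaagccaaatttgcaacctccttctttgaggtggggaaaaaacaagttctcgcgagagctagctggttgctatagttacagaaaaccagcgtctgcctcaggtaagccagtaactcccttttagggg
TAACNG was found in these 3 of the 8 windows and in 23.3% of 32851 mouse promoters of the same length. Spag6l held it 2 times, starting at positions −231 and −33 from the start site, Spag16 at −93 and Spag17 at −1. GTTGCC was found in 4 of the 8 (Spag6l, Spag16, Hydin and Spef2) and in 12.5% of all promoters. The Spag16 window held GTTGCC on both strands, starting at −111 and −103 and so within 20 bases before its TAACNG. The short MYB core AACNG, which lies inside TAACNG, was found in 7 of the 8, all except Cfap70, and in 80.3% of all promoters. The full X-box, an imperfect inverted repeat of that unit, was searched only as a strict pattern, with an exact first unit and a spacer of fixed length. That pattern was found in 0 of the 8 and in 0.298% of all promoters. Looser forms of the X-box were not searched, so this count does not show that the windows lack one. A match is a string of letters and was not tested for binding.

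Hydin, Spef2 and Cfap221 encode proteins of projections, Hydin on C2 and the other two on C1. Hydin (1460106_at, chromosome 8) had signals of 50.8, 53.2, 163, 145 and 37.1 in mutants at 17 dpp, against 458, 229, 267, 234 and 386 in wild type. These groups did not overlap, and the difference of −2.01 ± 0.41 (4.04-fold, adjusted p = 0.00431) was the smallest of the 9 on the signals as deposited. At 14 dpp Hydin gave 57.2, 60.6, 52.3, 93.0 and 76.5 in mutants and 78.0, 98.9 and 108 in wild type, with overlap (−0.50 ± 0.47).

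For Spef2 (1458911_at, chromosome 15) the mutant signals of 17 dpp were 2.61, 4.21, 76.1, 62.3 and 11.5, and the wild-type signals were 433, 185, 121, 123 and 307. The groups did not overlap, but the mutant arrays of set 3 (11.5 to 76.1) lay above those of set 1 (2.61 and 4.21). The difference was −3.84 ± 0.89 (14.3-fold, adjusted p = 0.0134). Cfap221 (1457159_at, chromosome 1) gave 4.12, 15.0, 143, 12.6 and 92.7 in mutants at 17 dpp, against 385, 375, 272, 87.0 and 328 in wild type. Mutant replicates 3 and 5 lay above wild-type replicate 4. The difference was −3.35 ± 0.77 (10.2-fold, adjusted p = 0.0122). At 14 dpp Spef2 was at most 18.3 in mutants and 14.1 in wild type, and Cfap221 at most 76.3 in mutants and 80.9 in wild type, and both genes overlapped between genotypes (−0.58 ± 1.03 and −0.44 ± 0.88).

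Cfap69, Cfap70 and Cfap54 are cilia and flagella associated proteins that were also placed on the central apparatus, Cfap69 and Cfap54 on C1 and Cfap70 on C2. Cfap69 (1455859_at, chromosome 5) had mutant signals of 418, 372, 154, 234 and 237 at 17 dpp, against wild-type signals of 3403, 2234, 2116, 1452 and 3321. At 14 dpp the mutants gave 291, 348, 294, 179 and 206 and the wild type 356, 668 and 610. The groups stood apart at both ages, narrowly at 14 dpp. Unlike the SPAG genes, Cfap69 was above the 40th percentile on every mutant array. The difference was −3.17 ± 0.32 at 17 dpp (8.97-fold, adjusted p = 3.26e-06) and −1.04 ± 0.37 at 14 dpp (adjusted p = 1).

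Cfap70 (1456034_at, chromosome 14) gave 41.1, 49.8, 116, 30.5 and 40.3 in mutants at 17 dpp, against 1579, 727, 416, 157 and 875 in wild type. Its 14 dpp signals were the least spread of the 9 genes, with 71.2, 52.8, 58.0, 62.9 and 58.0 in mutants and 151, 142 and 147 in wild type. Neither age showed overlap, and the difference was −3.56 ± 0.49 at 17 dpp (11.8-fold, adjusted p = 9.27e-05) and −1.29 ± 0.56 at 14 dpp (adjusted p = 1). Cfap54 (1444517_at, chromosome 10) gave 130, 193, 256, 357 and 282 in mutants at 17 dpp, against 1488, 1248, 1254, 951 and 1709 in wild type. At 14 dpp it gave 276, 226, 316, 192 and 209 in mutants and 181, 309 and 344 in wild type, so that the genotypes overlapped at 14 dpp and stood apart at 17 dpp. The 17 dpp difference was −2.50 ± 0.29 (5.67-fold, adjusted p = 1.56e-05), and the 14 dpp difference was −0.16 ± 0.34.

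Over the 9 genes, every mutant array lay below every wild-type array for 7 genes at 17 dpp and for 4 genes at 14 dpp. The same held for 5.02% of all genes at 17 dpp and for 4.51% at 14 dpp. The 4 genes at 14 dpp were Spag6l, Spag16, Cfap69 and Cfap70, and the same 4 had an unadjusted p under 0.05 there. All 9 differences were negative at 14 dpp, but none passed. Within array sets 1 and 2 none passed either, beside 0.32% and 0.157% of all genes called lower there, nor with the array set as a block (0.601% of all genes).

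**Figure D2:**
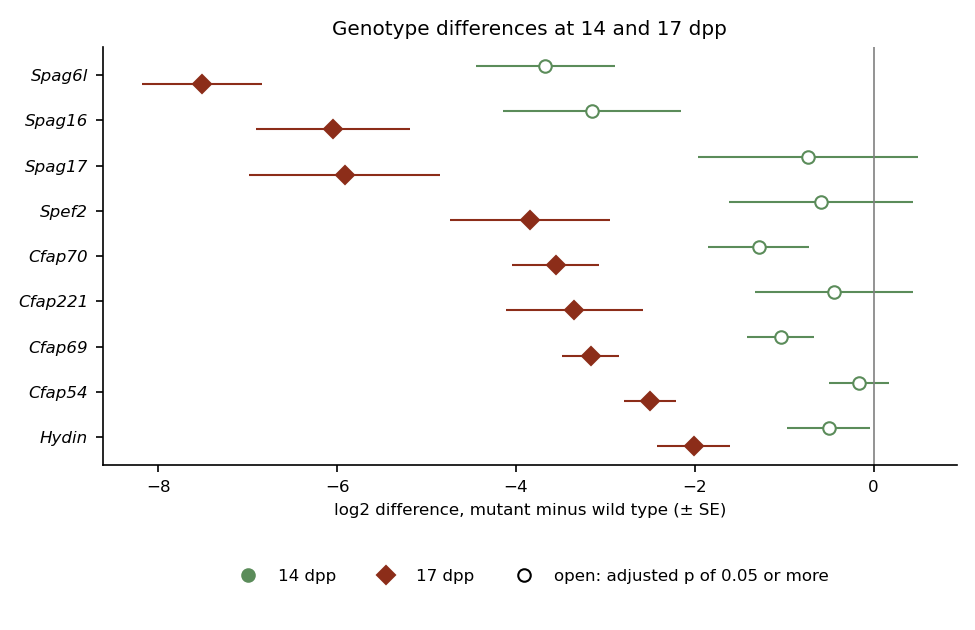
Log2 difference of mutants minus wild type (± SE, limma) for the 9 central pair genes at 14 and 17 dpp, with open symbols where the adjusted p was 0.05 or more. All values lie left of 0, the 17 dpp values run from −7.51 (Spag6l) to −2.01 (Hydin), and each gene's 14 dpp value is closer to 0.

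Further probe sets of the same genes were dimmer. Of the 14 tested probe sets 13 were called lower in mutants at 17 dpp, beside 3.86% of all probe sets, and 0 at 14 dpp, beside 0.196%. A second Spag16 probe set (1431732_at) differed by −2.79 ± 0.59 at 17 dpp (adjusted p = 0.00657), less than the brightest one. A second Spef2 probe set (1446747_at) gave 2.28, 15.4, 11.8, 4.74 and 10.7 in mutants at 17 dpp, against 93.9, 171, 161, 89.3 and 244 in wild type. Its groups stood further apart than those of the brighter Spef2 probe set (−4.27 ± 0.79, adjusted p = 0.00206). A second Cfap69 probe set (1440796_at) was called as well (−3.29 ± 0.82, adjusted p = 0.0207), while 1457697_at was not (−1.78 ± 1.04, adjusted p = 0.366). On 1457697_at wild-type replicate 4 gave 3.40, whereas the other wild-type arrays of 17 dpp gave 98.6 to 545. The 6 probe sets too dim to be tested were a second one of Cfap54, Cfap70 and Hydin, another of Spef2 and 2 of Spag16. No group's geometric mean on them was above 47.5.

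The change with age was compared within each genotype. In wild type 8 of the 9 genes rose between 14 and 17 dpp, with a median of 2.28 against −0.43 over all genes. The rises ran from 1.68 ± 0.47 for Hydin (adjusted p = 0.0214) to 4.48 ± 1.23 for Spag17 (adjusted p = 0.0208). Spef2 rose by 4.36 ± 1.03, Spag6l by 3.21 ± 0.78, Spag16 by 2.90 ± 0.99, Cfap54 by 2.28 ± 0.34, Cfap69 by 2.18 ± 0.37 and Cfap70 by 1.98 ± 0.56. Cfap221 did not pass (2.01 ± 0.88, adjusted p = 0.106). In mutants the 9 age differences ran from −0.90 ± 0.77 (Cfap221) to 1.10 ± 0.89 (Spef2), with a median of −0.06 and 0 of 9 at an unadjusted p under 0.05.

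The age comparison is the one most bound up with the array sets, since 4 of the 5 wild-type arrays of 17 dpp were in set 3 and no 14 dpp array was. With the set as a block, Cfap54 (1.97, adjusted p = 0.00415), Cfap69 (2.77, adjusted p = 0.000282) and Cfap70 (2.45, adjusted p = 0.0419) were called, 3 of 9, beside 4.85% of all genes. Within set 1, with 1 wild-type array of 17 dpp against 2 of 14 dpp, Spef2 (5.68, adjusted p = 0.0268), Spag6l (4.34, adjusted p = 0.0329), Cfap69 (2.80, adjusted p = 0.00825) and Cfap54 (2.65, adjusted p = 0.00799) were called, and 2.04% of all genes were. The lone array was assumed to vary like the other groups. Cfap54 and Cfap69 were called under all 3 ways of handling the sets, but with the mean of its tested probe sets in place of the brightest one Cfap69 gave 0.77 and was not called (adjusted p = 0.403). The count also fell to 2 without wild-type replicate 1 of 14 dpp, to 5 without replicate 2 and 4 without replicate 3 of that group and to 4 without wild-type replicate 5 of 17 dpp.

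Whether the genotype difference itself changed with age was tested as the interaction. All 9 interaction terms were negative, with 9 of 9 at an unadjusted p under 0.05, but only Cfap54 was called after adjustment (−2.34 ± 0.45, adjusted p = 0.0346), beside 0.353% of all genes. That call ended when any array of 14 dpp, mutant replicate 2 of 17 dpp or wild-type replicate 2, 3 or 5 of 17 dpp was left out, with the least negative value without wild-type replicate 1 of 14 dpp (−2.06, adjusted p = 0.202). The largest terms, of Spag17 (−5.18 ± 1.63, adjusted p = 0.402) and Spag6l (−3.84 ± 1.03, adjusted p = 0.201), did not pass.

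Array sets 1 and 3 each held both genotypes at 17 dpp, so the difference was also taken within each set. Within set 3 (3 mutant arrays, 4 wild-type arrays) 7 of 9 genes were called lower, all except Spef2 (−2.17, adjusted p = 0.0837) and Cfap221 (−2.07, adjusted p = 0.0907), beside 8.75% of all genes. Set 1 held 2 mutant arrays and 1 wild-type array, whose spread is unknown and was taken from the other groups. On that assumption 8 of 9 were called lower there, all except Spag17, beside 4.1% of all genes. Spag6l differed by −6.30 within set 3 and −9.95 within set 1, Spag16 by −4.66 and −9.11, and Spef2 by −2.17 and −7.03. Cfap69 gave −3.42 in set 3 and −3.11 in set 1. A test of the difference between sets (set 3 minus set 1) was called for 0 of the 9 genes, beside 0.0196% of all genes called higher in set 3 and 0 lower. The smallest adjusted p among them was 0.676 (Spef2), and Spef2, Spag6l, Spag16, Cfap221, Cfap54 and Spag17 had an unadjusted p under 0.05. With the set as a block all 9 were called, from −7.32 for Spag6l to −1.97 for Hydin, beside 11.5% of all genes.

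**Figure D3:**
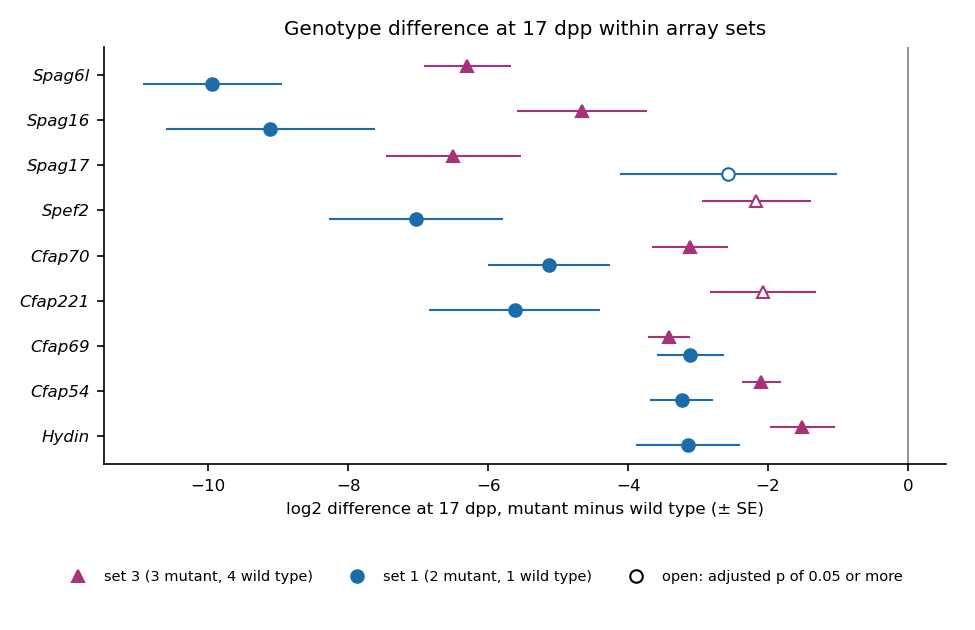
Log2 difference at 17 dpp of mutants minus wild type (± SE, limma) within array set 3 (triangles) and array set 1 (circles), with open symbols where the adjusted p was 0.05 or more. Spag17 and Cfap69 are the genes whose set 3 difference is the more negative one.

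Spag17, like Cfap69, had the more negative difference in set 3, and the other 7 genes had it in set 1. Its brightest probe set differed by −6.50 within set 3 (adjusted p = 0.000388) and by −2.57 within set 1 (adjusted p = 0.587). In set 3 the mutant arrays were at 2.21 to 87.6 and the wild-type arrays at 838 to 2039, and in set 1 the mutant arrays were at 6.66 and 6.45 and the lone wild-type array at 38.8. The difference between the sets was −3.93 ± 1.83 and did not pass (adjusted p = 1). The second Spag17 probe set (1459142_at) did not follow this pattern. It gave 1.65, 1.52, 2.69, 27.3 and 24.3 in mutants at 17 dpp, against 140, 95.4, 98.8, 140 and 107 in wild type. The lone wild-type array of set 1 was level with the others there, and the probe set was called within set 3 (−3.17, adjusted p = 0.0349), within set 1 (−6.46, adjusted p = 0.0216) and over all arrays (−4.42 ± 0.88, adjusted p = 0.00383). Where both probe sets lie along the transcript is unknown here, and the part of the labelling length in this contrast was not tested.

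**Figure D4:**
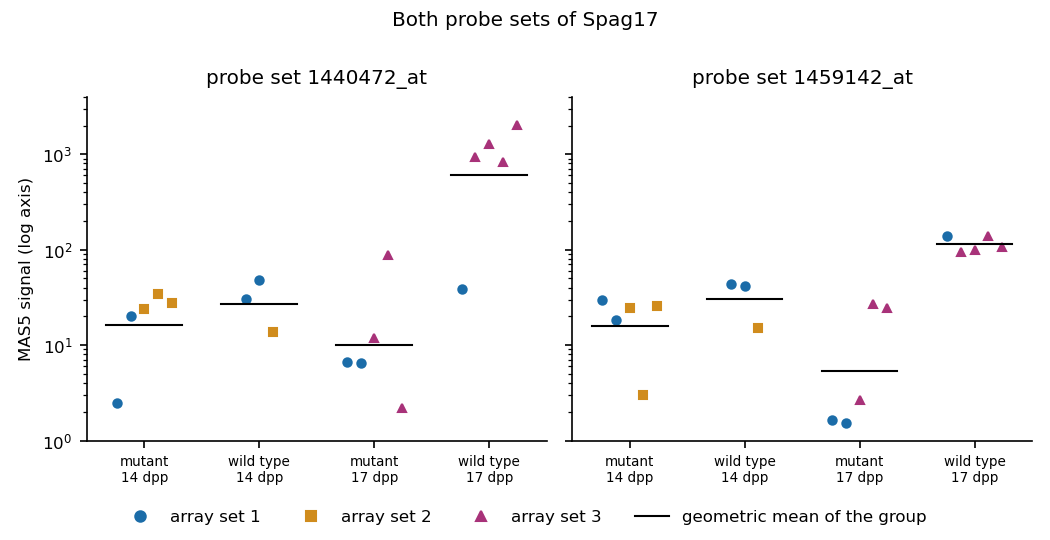
MAS5 signal (arbitrary units, log axis) of both Spag17 probe sets on each array by group; marker shapes give the array set and bars the geometric mean. On 1440472_at the wild-type array of set 1 at 17 dpp (38.8) stands among the mutant arrays, and on 1459142_at the same array (140) stands with the other wild-type arrays.

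The arrays of a group differed in their ranks. Among the wild-type arrays of 17 dpp, replicate 1 (the set 1 array) was highest for 7 of the 9 genes and lowest for Spag17 alone, and replicate 4 was lowest for 6. Of 12 pachytene markers replicate 1 was lowest for 6 and replicate 4 for 5, and of all genes replicate 1 was lowest for 28.4% and replicate 4 for 21.9%. Replicate 1 thus had the highest summed signal of the 9 genes (13006) and the lowest of the pachytene markers (82257) among these arrays. Summed over the 9 genes, the signal was 686 to 808 in mutants and 1015 to 1717 in wild type at 14 dpp, and 662 to 975 in mutants and 4725 to 13006 in wild type at 17 dpp. The number of genes above the array's 40th percentile was 2 or 3 on mutant and 5 to 7 on wild-type arrays of 14 dpp, and 2 to 5 on mutant and 8 or 9 on wild-type arrays of 17 dpp. By summed signal as deposited, the wild-type arrays of 14 dpp stood above all mutant arrays and below the older wild type. The arrays of set 3 had a trimmed mean of 394.9 and all others of 500, so sums of different sets are not on one scale. The highest mutant sum (975) was on a set 3 array. Scaled to a trimmed mean of 500 it would exceed 1015, so the order of these groups holds only as deposited.

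Likeness of pattern was measured as the root mean square distance between log2 profiles over the 18 arrays, each centred on its own mean. The arrays share their groups and sets, and the distances are descriptions. Hydin and Cfap54 were the closest pair (0.57), followed by Cfap69 and Cfap54 (0.65) and by Cfap69 and Cfap70 (0.75). The widest pair was Spag6l and Hydin (2.46), which have the largest and the smallest difference at 17 dpp. Cfap70 lay closest to the mean profile of the 9 (0.70) and Spag17 farthest (1.69), and the median over all genes was 2.14. By this distance Cfap70 ranked 41 and Spag17 1744 of 15307 genes, although the mean profile includes the members themselves. Many other genes thus lay nearer to it than some members. Of genes outside the group, Ttc25, known from the docking of outer dynein arms, was nearest to the mean profile (0.32), with a mean signal of 73.5 in mutants and 942 in wild type at 17 dpp (log2 difference −3.68 ± 0.43). Asrgl1 (0.46), Wdr20rt (0.47), Spats1 (0.48) and Tcte2 (0.48) came next.

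Other genes of the axoneme, in lists chosen by name with earlier results of these data known, were set beside the 9. Of 11 further central pair genes and partners 8 were on the array by a probe set of their own and 7 were tested, of which 1 fell at 17 dpp, with a median of −1.13. That gene was Kif9, a kinesin (−2.25 ± 0.49, adjusted p = 0.00904). Spag6, the relative of Spag6l, gave 33.6 in mutants and 73.7 in wild type as geometric means at 17 dpp (−1.13 ± 0.91, adjusted p = 0.535), and with age it rose in wild type (3.23 ± 1.06, adjusted p = 0.0382), though not with the array set as a block (adjusted p = 0.422). Cfap20, better known from the doublets (−1.12 ± 0.35, adjusted p = 0.0707), the kinase gene Stk36 (−1.18 ± 0.56), Mycbpap (−1.47 ± 0.87), Mycbp (−0.41 ± 0.32) and Spef1, a microtubule-bundling protein (0.54 ± 0.65), did not pass. With the array set as a block, 4 of the 7 fell, namely Kif9, Cfap20, Stk36 and Mycbpap. Cfap47 was too dim to be tested.

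Of 15 tested radial spoke genes 7 fell at 17 dpp and none rose, with a median of −2.46. The largest falls among them were those of Cfap206 (−6.31 ± 0.72), Iqub (−5.58 ± 0.92), Ropn1l (−4.44 ± 0.49) and Lrrc23 (−4.17 ± 0.98). The next list held genes of the nexin-dynein regulatory complex, which links neighbouring doublets, and genes grouped with it here, among them Ccdc39. In that list 5 of 10 fell (median −2.20), with Ccdc39 (−4.35 ± 0.45) and Ccdc65 (−3.46 ± 0.86) the largest. Of 11 axonemal dynein chains 5 fell (median −2.28), led by the heavy chains Dnah8 (−4.46 ± 0.48) and Dnah7a (−3.51 ± 0.42). With the array set as a block, 10 radial spoke genes, 7 of the regulatory complex list and 8 dynein chains fell, beside 11.5% of all genes. At 14 dpp none of the further central pair, spoke and regulatory complex genes was called, and of the dyneins Dnah7a was (−2.49 ± 0.48, adjusted p = 0.0366). With array sets blocked, the spoke genes Rsph1 (−2.56, adjusted p = 8.39e-05) and Ropn1l (−2.48, adjusted p = 0.00901) and Ccdc39 of the regulatory complex list (−1.96, adjusted p = 0.00165) were called lower at 14 dpp. Among 4 tested RFX factors, which regulate ciliary genes, Rfx4 fell at both ages (differences of −3.86 ± 0.62 at 14 dpp with adjusted p = 0.00653, and −5.73 ± 0.54 at 17 dpp with adjusted p = 1.39e-06). Rfx2, known to be needed for the flagellar program of mouse spermatids, fell at 17 dpp (−2.44 ± 0.68, adjusted p = 0.0436). Rfx1 (0.76 ± 0.32) and Rfx3 (0.48 ± 0.36) were not called at 17 dpp, and with the array set as a block Rfx3 was called higher in mutants (0.73, adjusted p = 0.0341).

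**Figure D5:**
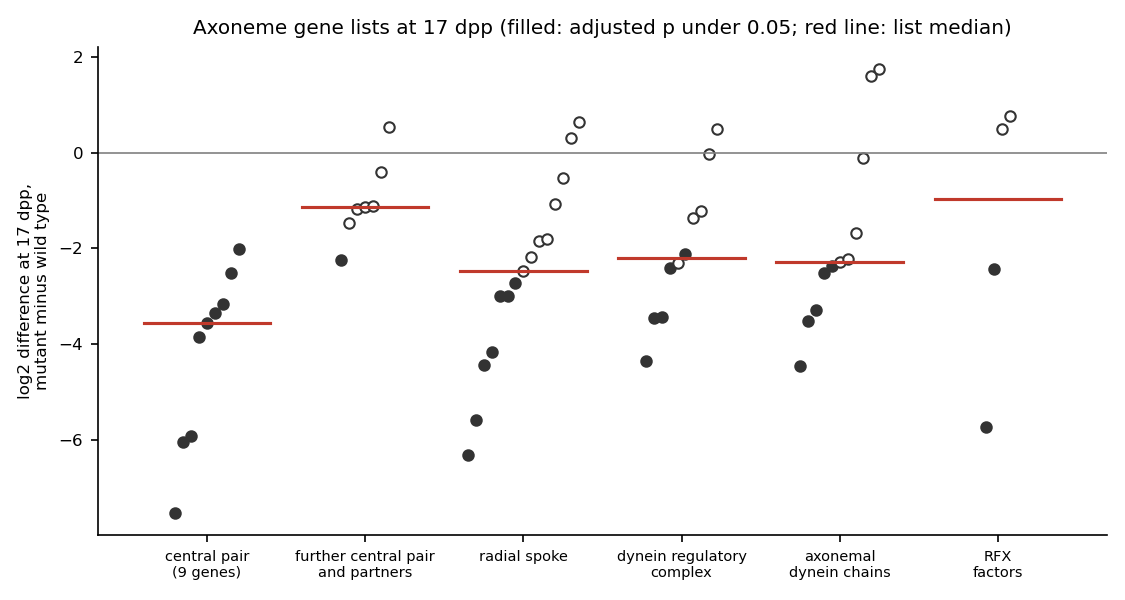
Log2 difference at 17 dpp of mutants minus wild type for each tested gene of the axoneme lists (points, filled where the adjusted p was under 0.05) with the median of each list (line). The 9 central pair genes are all filled (median −3.56), and every other list holds filled and open points, with medians of −2.46 for radial spoke genes and −1.13 for further central pair genes.

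Markers of pachytene spermatocytes, the cells in which flagellar transcripts are known to begin to accumulate, had negative medians at both ages. Of 12 such markers 8 fell at 17 dpp (median −3.74), where 9 of the 9 central pair genes did, and 6 fell at 14 dpp (median −2.28), where 0 of the 9 did. With age in mutants the markers had a median of 0.61, against −0.06 for the 9 genes, and none was called. Their summed signal was 20389 to 66131 in mutants and 82257 to 220504 in wild type at 17 dpp, and 19122 to 23079 in mutants and 30452 to 40750 in wild type at 14 dpp. On each array 7 or more of the 12 markers lay above the 40th percentile. The part of these markers in the differences of the central pair genes was not tested. Of the somatic and premeiotic markers at 17 dpp, 0 of 9 Sertoli, 0 of 5 Leydig, 0 of 6 endothelial and 0 of 5 peritubular myoid genes were called. Their medians were 0.71, 0.84, 0.41 and 0.74 in that order, against 0.26 over all genes. Among these lists 1 endothelial gene alone had a negative difference. Csf1r, a macrophage receptor, was higher in mutants (0.90 ± 0.25, adjusted p = 0.0375) as 1 of 6 macrophage genes. Id4, listed as a gene of spermatogonial stem cells, was lower (−2.72 ± 0.24, adjusted p = 8.1e-07) as 1 of 9 spermatogonial genes, whose median was 0.70. With age in wild type Id4 rose (2.42 ± 0.28, and 2.29 with the array set as a block), whereas 5 of the 9 were called lower without the block. Id4 thus did not follow its list, and its fall is not read as a loss of stem cells. With the array set as a block, 4 of 9 Sertoli, 3 of 9 spermatogonial and 3 of 6 macrophage genes were called higher in mutants. So was 1 of 5 peritubular genes, and Id4 was called lower. Over all 15307 genes, 2196 were called higher and 1758 lower with that block, so a single call in a list says little about its cell type. Round spermatid markers, of cells that build the flagellum, were called for 0 of 6 genes at either age. Their medians were 0.21 at 14 dpp and 0.15 at 17 dpp. All except Spaca1 were dim at 17 dpp, so their lack of calls says little. The dim markers had geometric means of 31.0 to 72.4 in mutants and 5.83 to 77.7 in wild type. With the array set as a block Prm2, a protamine among these dim markers, was called higher in mutants at 17 dpp (1.33, adjusted p = 0.0349). It was 1 of 6 round spermatid genes, beside the 2196 of all 15307 genes called higher with that block. Markers of the epididymis and efferent ducts, whose lining carries motile cilia, gave no lower call among 5, and Esr1 was higher in mutants at 17 dpp (1.12 ± 0.20, adjusted p = 0.00113). The other 4 of these markers were dim at 17 dpp, with geometric means of 17.9 to 54.7 in mutants and 23.1 to 60.2 in wild type, and their differences took both signs (−0.55 to 0.30).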

How the data were processed

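The deposited values were MAS5 signal intensities on a linear scale from an Affymetrix whole-genome mouse expression array, 1 array per sample, made by the authors with MAS5 per the submitters' processing notes (version not given) and with GCOS per the series' design text. The intensity had a trimmed mean of 500 on 11 arrays and of 394.9 on the 7 arrays of set 3, and no normalization was added. Array sets were defined after the data were seen, from the β-actin 3'/5' ratio with bounds of 1.9 and 10. Detection calls were not analysed here.

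Of 45101 probe sets, 64 controls were left out. Tested were the 34764 of 45037 probe sets whose signal exceeded the 40th percentile of the array on 3 arrays or more. Genes came from GEO's platform annotation (34945 probe sets named 1 gene) and were represented by the tested probe set with the highest mean signal (15307 genes). Log2 signals of all 18 arrays were fitted with limma 3.58.1 in R 4.3.3 (1 mean per group, eBayes with trend, 14 residual degrees of freedom, two-sided, Benjamini-Hochberg over all tested probe sets or genes, threshold 0.05). Within-set values used a mean per group and array set. The fit was tested on simulated data with 200 changed probe sets. All members and further central pair genes were named, with up to 4 called genes of largest difference per other list and the 5 genes nearest in pattern.

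Same-numbered arrays of both genotypes had deviations that correlated with r of 0.283 to 0.385 at 14 dpp, where they shared an array set. At 17 dpp r ran from −0.227, for the pair of different sets, to 0.777, so the numbers were not treated as pairs. Alternatives were other scalings, filters, offsets, array weights, blocks, array sets and left-out arrays. The members and gene lists were chosen with earlier results of these data known.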

Additional observations from a re-analysis of the deposited data

Results flagged for a closer look

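Of 27 gene and group combinations with 5 arrays, 4 held an array that stood apart from the others by Dixon's criterion, which chance meets in about 1 of 20 groups. Spag6l was highest on mutant replicate 1 of 14 dpp, at 56.1 against 9.63 to 12.5 on the other mutant arrays. Spag17 was lowest on the same array, at 2.50 against 20.4 to 34.3. On the wild-type arrays of 17 dpp, Spag17 was lowest on replicate 1, at 38.8 against 838 to 2039. Cfap221 was lowest on wild-type replicate 4 of 17 dpp, at 87.0 against 272 to 385. The genotype difference of Cfap54 changed with age by the interaction test (−2.34 ± 0.45, adjusted p = 0.0346 in limma).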

How the results depend on the processing

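At 17 dpp none of 315 alternative values for the 9 genes changed sign and 304 kept their call, while 11 lost it. Those were Spef2 (−2.92) and Cfap221 (−2.44) under array weights, Hydin, Spef2 and Cfap221 with only the arrays of 17 dpp (adjusted p = 0.0554, 0.0600 and 0.0999), Hydin (−0.94) and Cfap54 (−1.44) under the mean of all probe sets without a filter, Spag17 (−2.57) within array set 1 and without set 3, and Spef2 and Cfap221 within set 3. Leaving out each array in turn gave 9 calls every time. At 14 dpp the count of 0 became 1 under quantile normalization, a common median, log2(signal + 16), only the arrays of 14 dpp, the mean of probe sets and the mean of all probe sets, 2 without set 3 and 4 under array weights, with 0 to 1 when an array was left out. The 1 interaction call became 0 under quantile normalization, without the trend, within set 1, under the mean of all probe sets and in a plain two-way model at 0.025, became 2 with log2(signal + 16) and the array set block, 3 under array weights and under the floor, and 5 without set 3, with 0 to 2 when an array was left out. The 8 age calls in wild type became 3 with the array set block, 4 within set 1, 4 in the two-way model and 5 under the mean of all probe sets, with 2 to 8 when an array was left out, and the 0 in mutants became 1 without set 3 (Cfap221, −2.59). With the replicate block, the calls were 9 at 17 dpp, 0 for the interaction and 2 for age in wild type, and Cfap54 at 14 dpp was 0.012. The count of 0 for the contrast between sets became 1 with the floor, for Spag17 (−4.01 against −3.93 as deposited), where the SE was 0.50 against 1.83. The floor makes dim arrays nearly alike, so this call rests on spread that it removed, and calls under the floor support nothing. The floor and the mean of all probe sets were chosen after seeing the data. Uncalled differences that changed sign were, at 14 dpp, Cfap54 (0.078 within set 1, 0.21 under the mean of all probe sets, −0.44 to 0.018 with an array left out), Hydin (0.10 under the mean of all probe sets), Spag17 (1.03 within set 2, 0.10 with the floor), Spef2 (0.019 under the mean of probe sets, 0.10 with the floor) and Cfap221 (0.019 with the floor). For the set contrast, Cfap69 was 1.22 under both means. For age in mutants they were Cfap70 (0.030 under quantile normalization, 0.045 under a common median, 0.054 with the array set block), Cfap54 (0.59 under quantile normalization, 0.27 under a common median, 0.081 under weights, 0.073 under the mean of all probe sets), Spag6l (0.22 under weights), Cfap69 (−0.073 under weights, −0.79 under both means), Spag16 (−0.16 with the set block, −1.21 within set 1, −1.47 without set 3, −0.25 with the floor), Hydin (−0.18 within set 1, −0.35 without set 3) and Spef2 (−1.01 without set 3, −0.25 with the floor). With an array left out, these age differences ran from −0.51 to 0.68 for Spag16, −0.22 to 0.15 for Cfap54, −0.11 to 0.25 for Cfap69 and −0.11 to 0.43 for Hydin. The cause was not tested for any of these. The median of all genes at 17 dpp was 0.26, and 0.12 under quantile normalization and under a common median, with 896 genes lower and 310 higher, 986 and 212, and 884 and 61 in that order, and 1758 lower and 2196 higher with the array set block. For age in wild type it was −0.43 (2945 lower, 1096 higher), −0.01 (1420 and 1465) and −0.07 (648 and 1487). Signals near background limit the 4 genes whose mutant arrays were all dim.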
